A study of Homo sapiens with 8 samples.

Results

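Messenger RNA levels of 9 genes of matrix breakdown were followed across 8 libraries of MDA-MB-231 cells: the matrix metalloproteinases MMP1, MMP3, MMP13 and MMP14, the plasminogen activator PLAU and its receptor PLAUR, and the metalloproteinase inhibitors TIMP1, TIMP2 and TIMP3. They were picked by gene name from the 45341 gene identifiers that the tables of both sequencing rounds share, and all 9 were found. Of these, 7 reached the level required for testing, and MMP3 and MMP13 did not. MMP1 rose 15.3-fold, and PLAU fell 4.77-fold and TIMP3 4.57-fold, between the dark and the irradiated library of cells given 1-SO. Vehicle cells of the same round moved the same way under UV-A by less, 5.7-fold for MMP1, 1.97-fold for PLAU and 1.65-fold for TIMP3. In vehicle cells of round 2, MMP1 was 1.12-fold lower with UV-A, PLAU 1.04-fold higher and TIMP3 1.25-fold lower. With 1-S in the dark, again 1 library, PLAU and TIMP3 fell by an amount similar to that in irradiated 1-SO cells.

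Matrix metalloproteinases are zinc enzymes that are made as inactive precursors and cut collagens and other matrix proteins outside the cell. TIMPs bind their active site and block it. PLAU, urokinase, binds its receptor PLAUR at the cell surface and turns plasminogen into plasmin, a protease that cuts matrix and can activate several MMP precursors. Invasive breast cancer lines such as MDA-MB-231 are known for expressing much of this system. Messenger RNA does not report secretion, activation or activity of these proteins.

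MDA-MB-231 is an established cell line from a human breast cancer without hormone receptors. The cells received 10 µM of 1 of 2 triphenylphosphonium salts, or the solvent vehicle with 1% DMSO, for 24 h, and 1 plate was then irradiated with UV-A for 30 min (8 bulbs, 325 to 375 nm) while the other was wrapped in foil. Both compounds carry a dibenzothienylmethyl group on the phosphonium, and 1-SO differs from 1-S by an oxo group on the ring system. The groups were vehicle in the dark (2 libraries), vehicle with UV-A (2 libraries), 1-SO in the dark, 1-SO with UV-A, 1-S in the dark and 1-S with UV-A (1 library each). Round 1 held 1-SO and 1 vehicle library under each light condition at passage 8, and round 2 held 1-S and the other vehicle libraries at passage 32 to 34. Compound, round and passage therefore cannot be told apart, nor can plate and light. The time between irradiation and RNA extraction is not stated in the labels.

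Each library had 15.8 to 22.6 M counted reads. Levels are given as FPKM, read counts scaled to gene length and library total, which the authors computed separately for each round with gene lengths that differ between rounds, so libraries were set against each other only within a round. Of 8 markers of MDA-MB-231 cells, VIM lay between 219 and 317 FPKM, and the sum of the 8 between 1039 and 2424 FPKM. In the fits described below, UV-A in 1-SO cells lowered 3 of the 8 (median -0.47), where 9.21% of all genes tested were called lower. 1-S in the dark lowered 5 of the 8 (median -0.77), where 15% of all genes were called lower. In both, 0 of the 8 were higher, where 5.57% and 15.9% of all genes were called higher. CAV1, for example, was at 156 FPKM with 1-SO in the dark and 53.7 with UV-A, and at 118 in its vehicle and 44.0 with 1-S in the dark. Of 6 markers that are low in such lines, ESR1, PGR and CDH1 were at most 0.14 FPKM, GATA3 lay between 2.46 and 3.47 FPKM and ERBB2 between 9.78 and 29.2 FPKM. FOXA1 was at 0.177 FPKM with 1-SO in the dark and 0.692 with UV-A, and at 0.812 in vehicle cells and 2.08 with 1-S in the dark. The part of these marker differences in the results was not tested. The fibroblast marker DCN had no reads, and the summed level of 3 fibroblast markers was at most 0.0817 FPKM, of 2 endothelial markers, of which 1 was matched, at most 0.0351 FPKM and of 4 leukocyte markers 0.796 to 3.07 FPKM, nearly all of it CD14. Mitochondrial genes took 0.93% of the reads in the 1-SO library with UV-A and 2.4 to 3.12% in the others, and the part of this difference in the results below was not tested. In bulk RNA, fewer cells with a transcript and less of it per cell cannot be told apart.

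Changes are given in 2 forms. A library ratio is the log2 ratio of FPKM of a pair of libraries of a round, with an exact 95% interval that covers counting error only. A fitted change is the log2 fold change of an edgeR model of all 8 libraries, with its standard error and a p-value adjusted over the 12696 genes tested, and is called at an adjusted p under 0.05. The model takes the light response of vehicle cells as shared by both rounds. Only the vehicle libraries inform the spread, since each compound group has 1 library. They leave 1 residual degree of freedom, beside 26 prior degrees of freedom (median), so the spread of a gene comes mostly from all genes tested. Replicate wells of a compound do not enter the p-values, and whether the vehicle libraries are separate cultures is not stated. The p-values thus measure only in small part how a gene itself varies between samples.

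**Figure D1:**
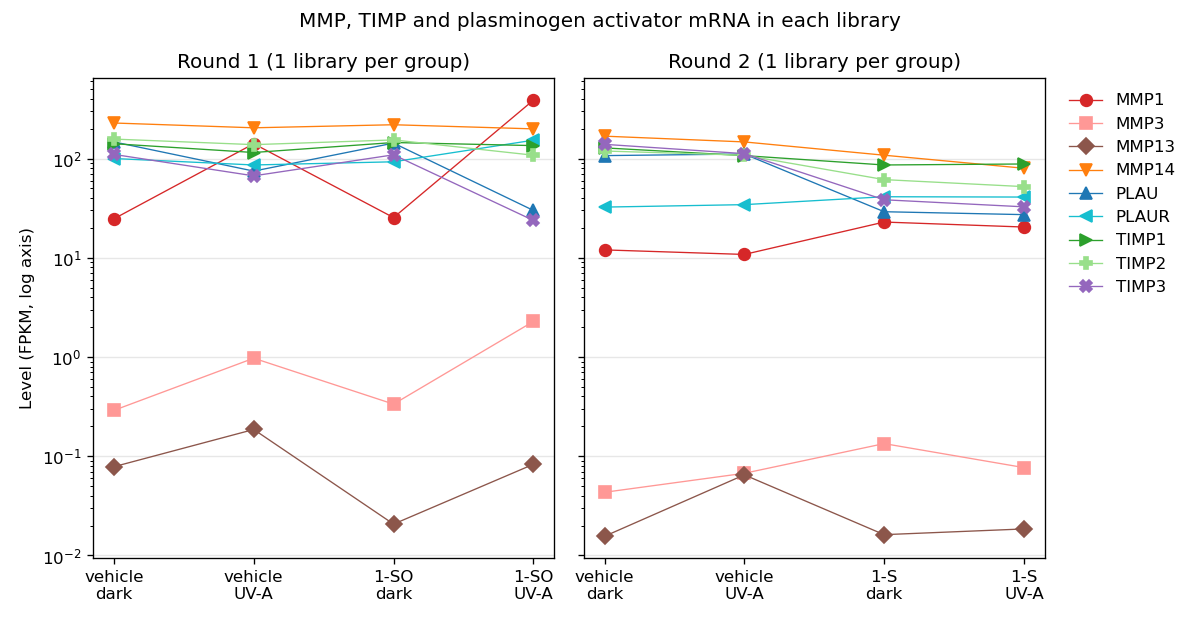
Level of the 9 genes (FPKM, log axis) in the 4 libraries of round 1 (left) and of round 2 (right), 1 point per library, with lines that only join the points of a gene. MMP1 is highest in the 1-SO library with UV-A at 387 FPKM, where PLAU (30.0) and TIMP3 (23.8) are at their lowest of round 1. In round 2 PLAU and TIMP3 are lower in both 1-S libraries than in both vehicle libraries.

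MMP1, the interstitial collagenase that makes the first cut in fibrillar collagen, had the largest ratio between irradiated and dark libraries of round 1 among the 9 genes. The gene (ENSG00000196611) lies on the minus strand of chromosome 11 (GRCh38, 102789920 to 102798160). In round 1 it was at 24.7 FPKM in vehicle cells in the dark, 141 FPKM in vehicle cells with UV-A, 25.4 FPKM with 1-SO in the dark and 387 FPKM with 1-SO and UV-A. Both irradiated libraries were above both dark ones, and 1-SO in the dark was next to its vehicle. MMP1 ranked 2903 among all gene identifiers with 1-SO in the dark and 76 with 1-SO and UV-A. In round 2 the levels were 12.0 FPKM in vehicle cells in the dark, 10.8 FPKM in vehicle cells with UV-A, 22.9 FPKM with 1-S in the dark and 20.4 FPKM with 1-S and UV-A. Here both 1-S libraries were above both vehicle libraries, and irradiated libraries were not above dark ones.

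UV-A raised MMP1 15.3-fold in 1-SO cells, a library ratio of 3.93 (3.84 to 4.03) and a fitted change of 3.81 ± 0.43 (SE, edgeR adjusted p = 8.5e-07). DESeq2 gave the same size with a larger error, 3.81 ± 1.42, and did not call it (adjusted p = 0.11). The vehicle cells of round 1 also had a high ratio under UV-A, 2.51 (2.41 to 2.62), and those of round 2 a ratio of -0.16 (-0.34 to 0.02). The response shared by both rounds, 1.22 ± 0.31, was not called (edgeR adjusted p = 0.44). In 1-S cells UV-A gave a fitted change of -0.17 ± 0.40 (edgeR adjusted p = 1).

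Since the vehicle response of MMP1 differed so much between rounds, comparisons with a vehicle depend on which vehicle library is used. Under UV-A, 1-SO stood 2.75-fold above the vehicle library of its own round, a library ratio of 1.46 (1.41 to 1.51), and the fitted change was 1.86 ± 0.33 (edgeR adjusted p = 0.0004). A fit with each round's own vehicle, which has as many terms as libraries and so gives values with no test, gave 1.38, as did leaving out either vehicle library in the dark or the irradiated one of round 2, whereas without the irradiated vehicle library of round 1 it was 3.97. DESeq2 did not call this difference (adjusted p = 0.68). With 1-S in the dark MMP1 was 1.90-fold above the vehicle library of its round, and the fitted change was 1.45 ± 0.35 (edgeR adjusted p = 0.0028). With its own vehicle alone it was 0.89, a value with no test, and without the dark vehicle library of round 2 it was 3.47, against 0.89 without any one of the other vehicle libraries. DESeq2 did not call this difference either (adjusted p = 0.58). Under UV-A the library ratio of 1-S to vehicle was again 0.93 (0.76 to 1.10), but the fitted change was 0.06 ± 0.40 (edgeR adjusted p = 0.94), and with its own vehicle 0.86, again with no test. In the dark 1-SO had a library ratio of 0.04 (-0.10 to 0.17), and its fitted change of -0.73 ± 0.40 was not called (edgeR adjusted p = 1).

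MMP3, stromelysin, which cuts many matrix proteins and can activate MMP1, followed the same order in round 1 at a far lower level. It was at 0.290 FPKM in vehicle cells in the dark, 0.972 with UV-A, 0.335 with 1-SO in the dark and 2.28 with 1-SO and UV-A, from 11, 31, 12 and 102 reads. The library ratio of UV-A in 1-SO cells was 2.77 (1.90 to 3.77). MMP3 did not reach the level required for testing, and a fit without that filter gave 2.63 ± 0.74 (edgeR adjusted p = 0.0071). In round 2 it had 2 to 6 reads per library, too few to show a difference. MMP13, another collagenase, had 1 to 8 reads in each library, and no difference was detectable at this depth.

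MMP14, the membrane-anchored metalloproteinase that activates the MMP2 precursor, was the highest of the 4 MMPs in 7 of the 8 libraries. It was at 228 FPKM in vehicle cells in the dark, 204 with UV-A, 219 with 1-SO in the dark and 199 with 1-SO and UV-A, so the 4 libraries of round 1 were close together. In round 2 it went from 168 FPKM in vehicle cells in the dark and 147 with UV-A to 108 with 1-S in the dark and 79.8 with 1-S and UV-A, with both 1-S libraries below both vehicle libraries. The decrease with 1-S was -0.69 ± 0.22 in the dark (edgeR adjusted p = 0.02) and -0.93 ± 0.23 under UV-A (edgeR adjusted p = 0.0027). In 1-SO cells UV-A changed it by -0.27 ± 0.23, which was not called (edgeR adjusted p = 0.48).

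PLAU (ENSG00000122861; chromosome 10, plus strand, GRCh38 73909177 to 73917497) fell under the same 1-SO and UV-A condition in which MMP1 rose. It was at 147 FPKM in vehicle cells in the dark, 74.7 with UV-A, 143 with 1-SO in the dark and 30.0 with 1-SO and UV-A. Both irradiated libraries were below both dark ones. In round 2 it was at 107 FPKM in vehicle cells in the dark, 111 with UV-A, 29.1 with 1-S in the dark and 27.2 with 1-S and UV-A, so that the 1-S libraries were low under either light condition. UV-A lowered PLAU 4.77-fold in 1-SO cells, a fitted change of -2.38 ± 0.26 (SE, edgeR adjusted p = 6.8e-07), and its change in 1-S cells, -0.11 ± 0.25, was not called (edgeR adjusted p = 1). With 1-S in the dark it was 3.67-fold below its vehicle, a fitted change of -2.22 ± 0.26 (edgeR adjusted p = 2.9e-07). Under UV-A the change against vehicle was -1.85 ± 0.25 with 1-S (edgeR adjusted p = 2.9e-06) and -1.70 ± 0.25 with 1-SO (edgeR adjusted p = 5.5e-05). DESeq2 called neither of these (adjusted p = 0.063 and 0.2), and without the irradiated vehicle library of round 2 the 1-S value was -0.98. With 1-SO in the dark the library ratio was -0.04 (-0.08 to 0.01).

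PLAUR, the receptor that holds PLAU at the cell surface, went the other way with 1-SO and UV-A, by a smaller amount. It was at 100 FPKM in vehicle cells in the dark, 86.1 with UV-A, 92.7 with 1-SO in the dark and 153 with 1-SO and UV-A, the highest library of round 1. In round 2 it was at 32.4 FPKM in vehicle cells in the dark, 34.3 with UV-A, 41.2 with 1-S in the dark and 40.9 with 1-S and UV-A. UV-A in 1-SO cells gave 0.59 ± 0.20 (edgeR adjusted p = 0.043), a call that DESeq2 (adjusted p = 0.24), median-of-ratios scaling (0.055) and the fit without a filter (0.052) did not make. Against irradiated vehicle cells it was higher with 1-SO by 0.65 ± 0.19 (edgeR adjusted p = 0.022; DESeq2 0.17), and by 0.36 without the irradiated vehicle library of round 1. With 1-S its changes of 0.20 ± 0.19 in the dark and 0.28 ± 0.18 under UV-A were not called (edgeR adjusted p = 0.43 and 0.27).

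TIMP3, the inhibitor that stays bound to the matrix, had nearly the pattern of PLAU. The gene (ENSG00000100234) lies on the plus strand of chromosome 22 (GRCh38, 32801701 to 32863043). It was at 110 FPKM in vehicle cells in the dark, 66.9 with UV-A, 109 with 1-SO in the dark and 23.8 with 1-SO and UV-A. In round 2 it was at 139 FPKM in vehicle cells in the dark, 112 with UV-A, 38.4 with 1-S in the dark and 32.6 with 1-S and UV-A. In each round the lowest library was the irradiated one with compound, and in round 2 both 1-S libraries were below both vehicle libraries. UV-A lowered TIMP3 4.57-fold in 1-SO cells, a fitted change of -2.32 ± 0.23 (SE, edgeR adjusted p = 2.1e-07). With 1-S in the dark it was 3.63-fold below vehicle, a fitted change of -2.03 ± 0.23 (edgeR adjusted p = 1.3e-07). Under UV-A it was below vehicle by -1.73 ± 0.22 with 1-S (edgeR adjusted p = 1.3e-06) and by -1.70 ± 0.22 with 1-SO (edgeR adjusted p = 1.1e-05). These 4 calls were also made by DESeq2. UV-A in 1-S cells changed it by -0.24 ± 0.22, which was not called (edgeR adjusted p = 1).

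TIMP2, which blocks MMPs and also takes part with MMP14 in activating the MMP2 precursor, was lower with 1-S. It was at 157 FPKM in vehicle cells in the dark, 138 with UV-A, 154 with 1-SO in the dark and 108 with 1-SO and UV-A. In round 2 it was at 119 FPKM in vehicle cells in the dark, 108 with UV-A, 61.3 with 1-S in the dark and 52.1 with 1-S and UV-A, so both 1-S libraries were below both vehicle libraries. It fell with 1-S by 1.03 ± 0.22 on the log2 scale in the dark (edgeR adjusted p = 0.00069) and by 1.09 ± 0.22 under UV-A (edgeR adjusted p = 0.00039). The change of -0.64 ± 0.22 under UV-A in 1-SO cells was not called (edgeR adjusted p = 0.056).

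TIMP1, a secreted inhibitor of most MMPs, was called lower with 1-S in the dark. It was at 141 FPKM in vehicle cells in the dark, 115 with UV-A, 145 with 1-SO in the dark and 135 with 1-SO and UV-A. In round 2 it was at 128 FPKM in vehicle cells in the dark, 107 with UV-A, 86.1 with 1-S in the dark and 88.1 with 1-S and UV-A. Both 1-S libraries were below both vehicle libraries, and the 4 libraries of round 1 were close together. The decrease with 1-S in the dark was -0.64 ± 0.18 (edgeR adjusted p = 0.0095), and DESeq2 did not call it (adjusted p = 0.056).

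The sequence before the start of TIMP3 is shown because TIMP3 was called lower with 1-S and with irradiated 1-SO, together with PLAU. RefSeq promoters (GRCh38.p14) were matched for 5 of the 9 genes, MMP14, PLAU, PLAUR, TIMP1 and TIMP3, and not for MMP1, MMP3, MMP13 and TIMP2. The stretch of the 250 bases before the TIMP3 start that no GENCODE exon covers, chr22:32801455-32801700 on the plus strand, is printed 5′ to 3′ with capitals on each match of the GC box GGGCGG, a motif bound by Sp1-type factors, on either strand.
TIMP3: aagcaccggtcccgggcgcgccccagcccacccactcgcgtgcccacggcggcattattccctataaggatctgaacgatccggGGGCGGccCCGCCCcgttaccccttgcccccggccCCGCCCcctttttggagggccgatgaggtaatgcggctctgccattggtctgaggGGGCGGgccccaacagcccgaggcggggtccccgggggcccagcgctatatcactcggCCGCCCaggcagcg
TIMP3 had 5 matches and a GC content of 72.4% in the 250 bases. TIMP1 had 2 matches and 64.8%, and MMP14 had 1 match and 56.8%. PLAU has 2 windows in the table, with 0 and 3 matches and a GC content of 46.8% and 68.8%, and PLAUR had 0 matches and 63.2%. GENCODE exons cover all 250 bases of each PLAU window and of the PLAUR window. They cover 123 bases for TIMP1, 28 for MMP14 and 4 for TIMP3. Of all windows, 42.6% of 35116 in RefSeq, held at least 1 match. The AP-1 motif TGANTCA, the same on both strands, was found in the window of PLAUR, beginning 186 bases before its start, and in none of the windows of the other 4 genes, against 6.57% of all windows. These matches describe the letters of the windows only.

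Counted over the 7 genes tested, UV-A in 1-SO cells called 4, with MMP1 and PLAUR higher and PLAU and TIMP3 lower, where 14.8% of all genes tested were called, 5.57% as higher and 9.21% as lower. DESeq2 called 2 of the 7. The median of the 7 fitted changes was -0.27, against 0.00 over all genes. On log2(FPKM + 1) with limma, which has no scaling beyond the library total, the median of all genes in this comparison lay 0.12 higher, and 57.9% of the called genes were higher against 37.7% with edgeR. There the 7 genes again gave 4 calls.

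UV-A alone called none of the 7 in vehicle cells (edgeR, 0% of all genes), although 4 of the 7 had an unadjusted p under 0.05, and DESeq2 and limma also called 0. The fit without a filter called MMP1 there (1.22 ± 0.17, edgeR adjusted p = 6.1e-09), and the value of MMP1 with each round's own vehicle was 1.15. The library ratios of MMP1 were 2.51 in round 1 and -0.16 in round 2. The error of 0.17 and its p-value therefore do not measure how MMP1 varied between the rounds. UV-A in 1-S cells called none (edgeR, 0% of all genes), with 0 at an unadjusted p under 0.05 and 0 by DESeq2 and by limma. With 1-SO in the dark none was called (edgeR, 0% of all genes), with 0 at an unadjusted p under 0.05 and 0 by both other tools.

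1-S in the dark called 6 of the 7, MMP1 higher and PLAU, TIMP3, TIMP2, MMP14 and TIMP1 lower, where 30.9% of all genes were called, 15.9% as higher and 15% as lower. The median fitted change of the 7 was -0.69, against 0.00 over all genes. Under UV-A 1-S called 4 of the 7, all lower (PLAU, TIMP3, TIMP2 and MMP14), where 27.5% of all genes were called, 13.8% as higher and 13.7% as lower. 1-SO called 4 of the 7 against vehicle under UV-A, 2 higher and 2 lower, where 11.5% of all genes were called, 4.47% as higher and 7.05% as lower. DESeq2 called 1 of them, TIMP3. The comparisons of a compound with vehicle and of UV-A within vehicle share the vehicle libraries.

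Library ratios of at least 2-fold are read beside the share of all genes past that fold. For UV-A in 1-SO cells 3 of the 7 genes tested were past it (10.6% of all genes), MMP1 higher and PLAU and TIMP3 lower, and the same 3 were past it for 1-SO against vehicle under UV-A (6.6%) and for 1-SO with UV-A against vehicle in the dark (12.1%). In vehicle cells UV-A took MMP1 alone past it in round 1 (3.06%) and none in round 2 (2.81%). UV-A in 1-S cells (2.78%) and 1-SO in the dark (1.74%) took none past it. With 1-S in the dark PLAU and TIMP3 were past it (14.6%), under UV-A TIMP2 as well (16.7%), and for 1-S with UV-A against vehicle in the dark MMP14 too (15.5%).

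**Figure D2:**
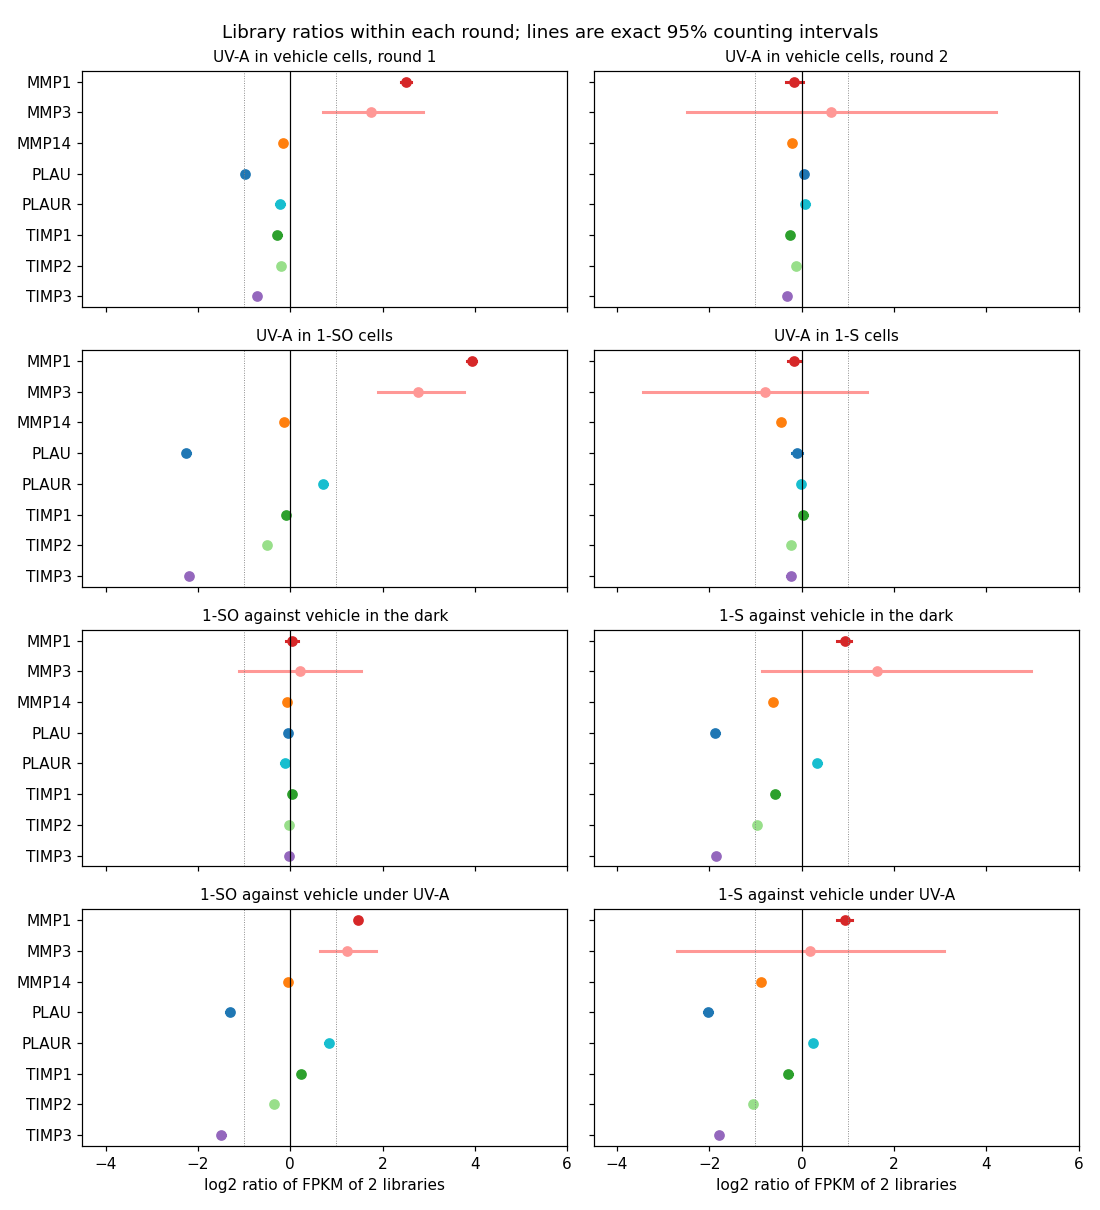
Log2 ratio of FPKM of 2 libraries of the same round for 8 of the genes (MMP13, with 1 to 8 reads, is left out), 1 panel per comparison. Points are ratios, lines are exact 95% counting intervals, and dotted lines mark a change of 2-fold. MMP1 lies at 3.93 and PLAU at -2.25 for UV-A in 1-SO cells, while the ratios of all 8 genes lie within 2-fold for UV-A in 1-S cells and for 1-SO in the dark, with a wide interval for MMP3.

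The light response itself was tested for a difference between cell treatments. For UV-A in 1-SO cells against UV-A in 1-S cells, 3 of the 7 were called, where 4.36% of all genes were called, 1.69% as higher and 2.67% as lower. The responses differed by 3.98 ± 0.57 for MMP1 (edgeR adjusted p = 0.00016), by -2.27 ± 0.36 for PLAU (edgeR adjusted p = 0.00046) and by -2.07 ± 0.32 for TIMP3 (edgeR adjusted p = 0.00037). DESeq2 called TIMP3 alone, with adjusted p = 0.68 for MMP1 and 0.58 for PLAU. These 1-SO and 1-S cells also differ in round and passage. In vehicle cells, UV-A gave library ratios of 2.51 in round 1 and -0.16 in round 2 for MMP1. For PLAU they were -0.98 and 0.06, and for TIMP3 -0.72 and -0.32. The part of round in the differences between 1-SO and 1-S was not tested. The same 3 genes were called for 1-SO against vehicle cells, where 4.37% of all genes were called, 1.47% as higher and 2.9% as lower.

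For MMP1 that difference from vehicle was 2.59 ± 0.50 (edgeR adjusted p = 0.0023), and 1.36, with no test, with the vehicle of round 1 alone, which is also the value without either vehicle library of round 2; without either of round 1 it was 3.95. It was -1.90 ± 0.31 for PLAU (edgeR adjusted p = 0.00043) and -1.77 ± 0.28 for TIMP3 (edgeR adjusted p = 0.00029). With the vehicle of round 1 alone, PLAU was at -1.34 and TIMP3 at -1.53, with no test. DESeq2 called TIMP3 and not MMP1 or PLAU (adjusted p = 0.96 and 0.63). For 1-S against vehicle cells none of the 7 was called (edgeR, 0% of all genes), with 1 at an unadjusted p under 0.05 and 0 by DESeq2 and by limma.

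**Figure D3:**
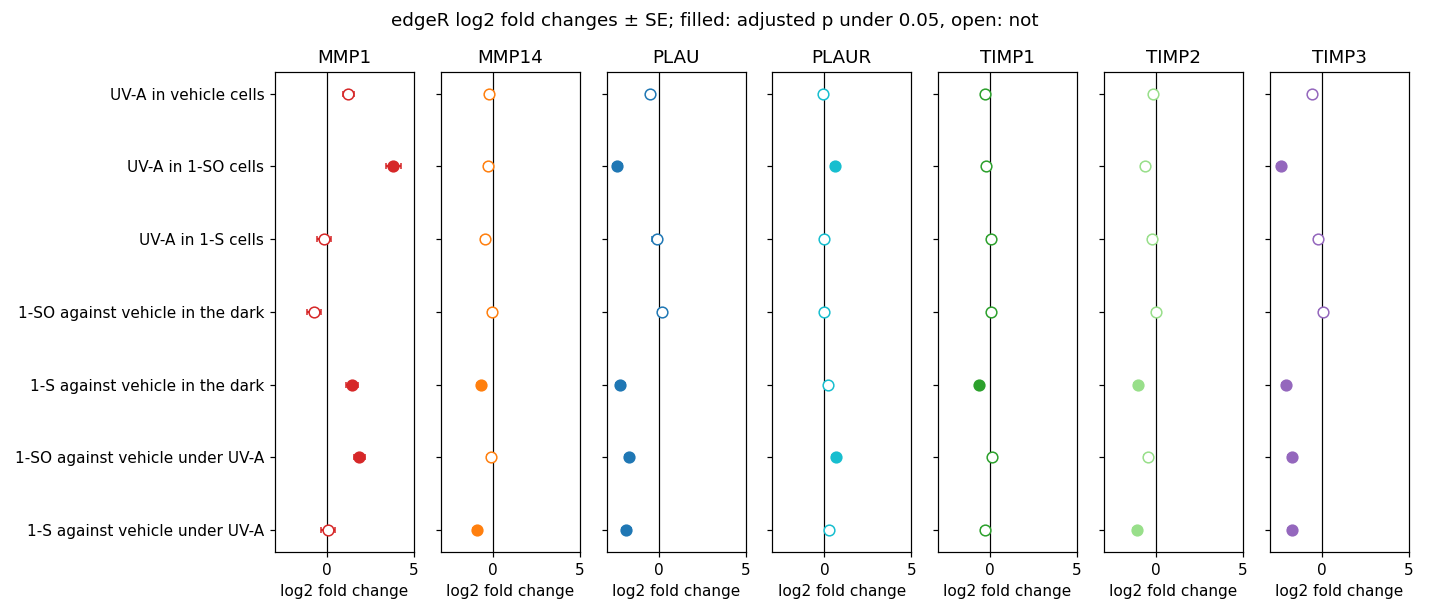
Fitted log2 fold changes (points) with standard errors (bars) from edgeR for the 7 genes tested, 1 panel per gene and 1 row per comparison. Filled points have an adjusted p under 0.05 over 12696 genes. PLAU and TIMP3 are filled in the same 4 rows, UV-A in 1-SO cells (-2.38 and -2.32), 1-S in the dark, and each compound against vehicle under UV-A.

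The compounds were compared at the same dose and time under both light conditions, each relative to vehicle. In the dark 5 of the 7 genes differed between 1-SO and 1-S, where 17.2% of all genes were called, 8.4% as higher and 8.77% as lower, and DESeq2 called 2. PLAU was higher with 1-SO, the compound with the oxo group, by 2.42 ± 0.32 (edgeR adjusted p = 3.8e-06), TIMP3 by 2.10 ± 0.28 (4.6e-06), TIMP2 by 1.01 ± 0.27 (0.011) and TIMP1 by 0.69 ± 0.24 (0.043). DESeq2 did not call PLAU (adjusted p = 0.11) or TIMP1 (0.22), and limma did not call TIMP1 (0.1). With each round's own vehicle the values were 1.86 for PLAU, 1.86 for TIMP3, 0.94 for TIMP2 and 0.63 for TIMP1, with no test. Leaving out 1 vehicle library at a time, PLAU ranged from 1.86 to 2.98. MMP1 was lower with 1-SO by -2.18 ± 0.50 (edgeR adjusted p = 0.0035), but by -0.87 with each round's own vehicle, a value with no test. That is also its value without either irradiated vehicle library, against -3.45 without either dark one.

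Under UV-A only MMP1 was called between the compounds, where 3.55% of all genes were called, 1.28% as higher and 2.27% as lower. It was higher with 1-SO by 1.80 ± 0.50 (edgeR adjusted p = 0.039), and by 0.52, with no test, with each round's own vehicle, which is also the value without either dark vehicle library; without either irradiated one it was 3.11. DESeq2, limma and median-of-ratios scaling did not call it (adjusted p = 1, 0.073 and 0.11). For PLAU the difference between the compounds under UV-A was 0.14, with a 95% interval from -0.50 to 0.78, and for TIMP3 it was 0.03, with an interval from -0.54 to 0.59. Round and passage differ with the compound in all of these values.

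Within a library the genes can be set against each other per length. MMP1 stood at 0.0605 of the summed FPKM of TIMP1, TIMP2 and TIMP3 in vehicle cells in the dark and 0.439 with UV-A. It was at 0.0623 with 1-SO in the dark and 1.45 with 1-SO and UV-A. In round 1 MMP1 exceeded the TIMP sum in that library only. In round 2 it was at 0.0312 in vehicle cells in the dark, 0.0328 with UV-A, 0.123 with 1-S in the dark and 0.118 with 1-S and UV-A. TIMP3 made up 27.0% of that sum in vehicle cells in the dark and 8.92% with 1-SO and UV-A, and 36.1% in vehicle cells in the dark of round 2 and 20.7% with 1-S in the dark. PLAU per PLAUR was 1.55 with 1-SO in the dark and 0.197 with 1-SO and UV-A, and 3.30 in vehicle cells in the dark of round 2 and 0.708 with 1-S in the dark. These proportions of single libraries carry no test. Gene lengths differ between the rounds, with PLAUR at 1610 bases in round 1 and 4457 in round 2. The proportions are therefore read only within a round.

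**Figure D4:**
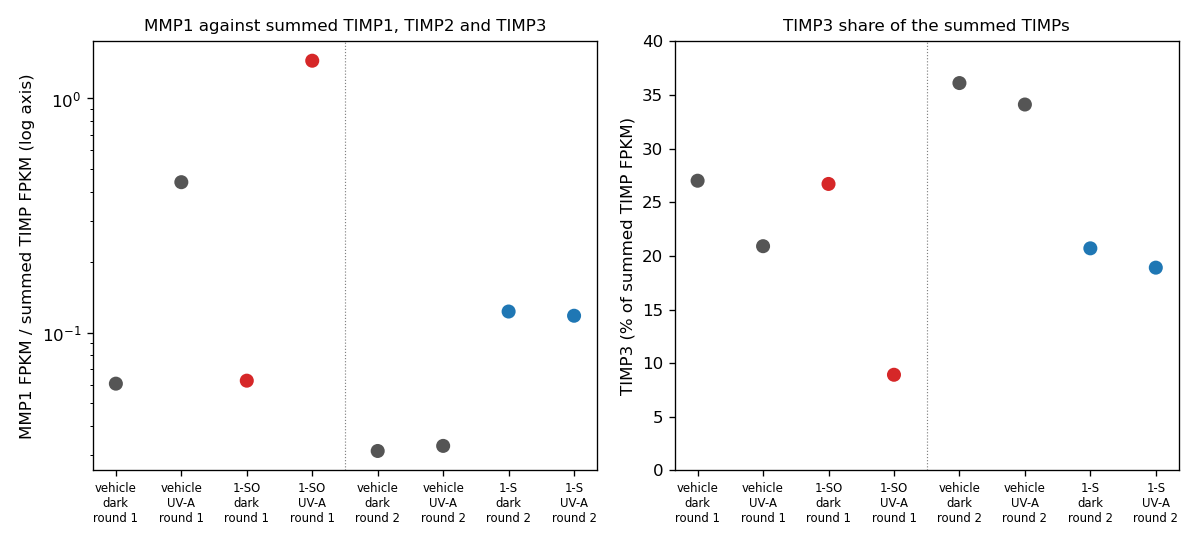
MMP1 as a proportion of the summed FPKM of the 3 TIMPs (left, log axis) and TIMP3 as a percentage of that sum (right), 1 point per library, vehicle in grey, 1-SO in red and 1-S in blue, with a dotted line between the rounds. The 1-SO library with UV-A has the highest MMP1 proportion (1.45) and the lowest TIMP3 share (8.92%) of round 1.

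Related genes were followed in fixed lists, in the same fits, and their counts stand beside 5.57% of all genes higher and 9.21% lower for UV-A in 1-SO cells, and 15.9% higher and 15% lower with 1-S in the dark. SERPINB2, ADAMTS9 and FOSB, which are in these counts, reached the level required for testing only in libraries where they were high, so their values are given with no test. Counts of higher genes that include them were in part set by this filter and carry no weight beside the shares. Of 10 tested genes of the plasminogen system, UV-A in 1-SO cells raised 2, SERPINB2 among them, and lowered 3. SERPINB2, an inhibitor of plasminogen activators, was at 0.418 FPKM in 1-SO cells in the dark and 2.42 with UV-A, and at 0.395 and 1.88 FPKM in the vehicle cells of that round. PLAT, the tissue plasminogen activator, fell from 293 to 118 FPKM (-1.43 ± 0.23, edgeR adjusted p = 9.7e-05). 1-S in the dark raised 1 of the 10 and lowered 4, with SERPINE2, an inhibitor of thrombin and plasminogen activators, at the highest ratio and PLAT at the lowest. SERPINE2 was at 4.71 FPKM in vehicle cells and 15.8 with 1-S (1.77 ± 0.18, edgeR adjusted p = 2.7e-08), and PLAT at 88.6 and 20.7 FPKM (-2.17 ± 0.23, edgeR adjusted p = 6.7e-08).

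Of 12 tested matrix genes, UV-A in 1-SO cells lowered 8 (9.21% of all genes) and raised 0 (5.57%), with a median change of -1.06, and 1-S in the dark lowered 7 (15%) and raised 2 (15.9%). COL13A1, a membrane collagen, fell from 119 to 35.1 FPKM with UV-A in 1-SO cells (-1.89 ± 0.22, edgeR adjusted p = 1.4e-06) and from 80.3 to 25.0 FPKM with 1-S in the dark (-1.85 ± 0.22, edgeR adjusted p = 2.9e-07). COL1A1, a chain of fibrillar collagen I, the substrate of MMP1, had the highest ratio of the list in both. It rose with 1-S in the dark by 2.34 ± 0.23 (edgeR adjusted p = 1.5e-08), with 1.45 FPKM in vehicle cells and 7.09 with 1-S. In 1-SO cells it was at 2.08 FPKM in the dark and 2.67 with UV-A, which was not called (edgeR adjusted p = 0.6).

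Of 13 AP-1 and ETS factors, families known to regulate MMP1 and PLAU, UV-A in 1-SO cells raised 4 (5.57% of all genes), FOSB among them, and lowered 0 (9.21%). FOSB was at 0.685 FPKM in 1-SO cells in the dark and 3.88 with UV-A, and at 0.803 and 2.31 FPKM in the vehicle cells of that round. JUN had the lowest ratio, 57.9 to 44.8 FPKM, and was not called. 1-S in the dark raised 6 (15.9%), FOSB among them, and lowered 2 (15%). FOS, at 3.52 FPKM in vehicle cells and 77.1 with 1-S, rose by 4.60 ± 0.21 (edgeR adjusted p = 5.2e-15). ETV1, at 21.0 and 10.1 FPKM, fell by 0.95 ± 0.20 (edgeR adjusted p = 0.00065).

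Of 11 tested ADAM and ADAMTS proteases, UV-A in 1-SO cells lowered 5 (9.21% of all genes). The 1 counted as higher (5.57%) was ADAMTS9, which passed the filter only through libraries where it was high. 1-S in the dark raised 3 (15.9%), ADAMTS9 among them, and lowered 7 (15%). ADAMTS15, a proteoglycan-cutting enzyme, fell by 1.78 ± 0.23 (edgeR adjusted p = 5.4e-06) and by 2.43 ± 0.24 (1.5e-08) on the log2 scale. ADAMTS9 was at 0.784 FPKM with 1-SO in the dark and 1.84 with UV-A, and at 0.656 in vehicle cells and 1.21 with 1-S in the dark. Of 5 other tested MMPs none was called in either comparison. They were weakly expressed, with MMP19 at 0.688 and 1.39 FPKM at the highest ratio for UV-A in 1-SO cells and MMP11 at 0.721 and 0.730 FPKM at the lowest. With 1-S in the dark the highest was MMP24, at 0.452 in vehicle and 0.736 FPKM with 1-S, and the lowest MMP11, at 0.942 and 1.09 FPKM. MMP19 and MMP24 passed the filter only through the irradiated libraries of round 1, and MMP11 only through the 1-S libraries. Their values are therefore given with no test. Of 10 other inhibitors and activators none was called for UV-A in 1-SO cells, where TIMP4 had the highest ratio (0.511 to 1.64 FPKM) and SPINT2 the lowest (48.6 to 36.3 FPKM). 1-S in the dark lowered 2 of them, with CD44, a receptor that binds MMPs at the cell surface, at the lowest ratio (-0.87 ± 0.22, edgeR adjusted p = 0.0039) and TIMP4 again at the highest ratio (0.913 to 1.61 FPKM).

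The pattern of each gene over the 8 libraries, as log2(FPKM + 1) centred within each round, was set against 1982 tested genes that varied by at least 1 on that scale. PLAU and TIMP3 correlated with each other at r = 0.99, and MMP1 with PLAU at r = -0.84. The genes most like MMP1 were GCKR, LY96, NAV3, SERPINB2 and GUSBP4 (r from 0.973 to 0.982). Those most like PLAU were CHAF1B, GINS2, GAS6, ZNF367 and LIG1 (0.996 to 0.998), and those most like TIMP3 were STEAP3, CAMK4, TSPAN9, CDCA7 and RP11-680F8.1 (0.993 to 0.998). The 8 points share libraries and depth and rest largely on the 1-SO library with UV-A and the 1-S libraries, so these values only describe likeness. SERPINB2 also passed the filter only through the irradiated libraries of round 1, where MMP1 was high.

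The authors' deposited tables compare pairs of libraries. For 1-SO with UV-A against vehicle in the dark, the authors' deposited table gives a log2 fold change of 3.80 for MMP1 (adjusted p = 3e-12), 2.79 for MMP3 (0.00089), -2.46 for PLAU (2.1e-05) and -2.38 for TIMP3 (3.9e-05). For 1-SO against vehicle, both with UV-A, the authors' deposited table gives 1.38 for MMP1 with an adjusted p of 0.26, -1.39 for PLAU (0.25) and -1.57 for TIMP3 (0.11). For vehicle cells with UV-A in round 1 the authors' deposited table gives 2.43 for MMP1 (adjusted p = 0.00053). For 1-S against vehicle in the dark the authors' deposited table gives -2.0 for PLAU (adjusted p = 0.00073) and -1.98 for TIMP3 (0.00081). For the other genes called here the adjusted p in the authors' deposited table was above 0.05, with log2 fold changes of 0.8 for MMP1 (adjusted p = 0.79), -1.08 for TIMP2 (0.28), -0.76 for MMP14 (0.85) and -0.69 for TIMP1 (1).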

How the data were processed

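RNA of 8 libraries was selected with poly-T beads and sequenced, per the labels. The deposited tables hold whole read counts per gene and the authors' FPKM values, which were recomputed from counts, gene length and library total as a check. The authors' deposited tables of library pairs hold log2 fold changes and the authors' p-values. Tools listed in the submitters' processing notes include STAR 2.5, HTSeq 0.6.1 and edgeR 3.16.5, with no roles. Round 1 coordinates are hg19 and round 2 GRCh38. The labels do not say whether reads were counted by strand.

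Genes with FPKM of at least 1 in at least 2 libraries were tested with edgeR 4.0.16 (R 4.3.3; quasi-likelihood, TMM within each round, Benjamini-Hochberg over 12696 genes) in 1 model of round, vehicle light response and each compound group, with 1 residual degree of freedom and 26 prior degrees of freedom (median). DESeq2 1.42.0, limma 3.58.1 on log2(FPKM + 1), other scaling, no filter, each round's own vehicle (saturated, so values with no test), no round block and leaving out each vehicle library were tried. The fits were tested on data simulated without a light response in vehicle cells. This cannot show how the p-values behave where the rounds disagree. Genes overlapping the 9 on the opposite strand had at most 0.229 FPKM. The 9 genes and the lists were chosen with earlier results of these data known. All 9 are named; from each list the genes of highest and lowest library ratio in UV-A with 1-SO and in 1-S in the dark are named. A further gene chosen for description is not reported here. Round is also the replicate number of the vehicle libraries and was kept as a block because rounds differ in passage and tables. Intervals of library ratios cover counting error only, and those of fitted changes come from the standard error of the edgeR fit.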

Additional observations from a re-analysis of the deposited data

Results flagged for a closer look

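The light response of 3 genes differed between groups of cells by a test of the difference itself. UV-A in 1-SO cells against UV-A in 1-S cells gave 3.98 ± 0.57 for MMP1, -2.27 ± 0.36 for PLAU and -2.07 ± 0.32 for TIMP3 on the log2 scale. These cells also differ in round and passage, and round cannot be told apart from compound here. The UV-A library ratio of MMP1 in vehicle cells was 2.51 in round 1 and -0.16 in round 2. UV-A in 1-SO cells against UV-A in vehicle cells gave 2.59 ± 0.50 for MMP1, -1.90 ± 0.31 for PLAU and -1.77 ± 0.28 for TIMP3. With the vehicle of round 1 alone the values were 1.36, -1.34 and -1.53, with no test. Leaving out 1 vehicle library at a time, MMP1 ranged from 1.36 to 3.95. Each difference rests on 1 library per compound and light condition, and DESeq2 called TIMP3 alone in both comparisons.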

How the results depend on the processing

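The numbers of the 7 genes called kept within 1.5 times under limma on log2(FPKM + 1) and under median-of-ratios scaling, except for 1-SO against 1-S under UV-A, where both gave 0 in place of 1. DESeq2 called 2 in place of 4 for UV-A in 1-SO cells, 1 in place of 4 for 1-SO against vehicle under UV-A, 2 in place of 5 for 1-SO against 1-S in the dark, 0 in place of 1 under UV-A, and 1 in place of 3 for both differences of the light response with 1-SO. The cause was not tested. Without a filter 1, MMP1, was called for UV-A in vehicle cells, 2 for 1-SO against 1-S under UV-A and 1 for the light response of 1-S against vehicle. The model with each round's own vehicle has no residual degree of freedom and takes its spread from a trend over genes alone, so its counts are no test. They were 1 (MMP1) for UV-A in vehicle cells, 3 for 1-SO against 1-S in the dark and 0 under UV-A. Without the round as replicate block 0 were called in every comparison, since the difference between rounds then enters the spread, and MMP1 between the compounds in the dark turned from -2.18 to 0.21 (adjusted p = 0.95). Of 30 called changes of single genes, 28 kept their call under limma, 28 under median-of-ratios scaling and 14 under DESeq2. Leaving out 1 vehicle library at a time leaves no residual degree of freedom, so it gives values with no test, and 0 of the 30 changed sign. MMP1 then ranged from 0.89 to 3.47 for 1-S in the dark and from 1.38 to 3.97 for 1-SO against vehicle under UV-A. Over the 10 pairs of libraries, 19 ratios of the tested genes were past 2-fold, and 19 to 20 under other pseudocounts and scaling. MMP3 and MMP13 are limited by depth, since 3 reads, the limit that a count of 0 allows, correspond to 0.133 to 0.19 CPM.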
